A study of Homo sapiens with 6 samples.

Results

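The 10 genes described here are fibroblast growth factor (FGF) ligands and receptors: FGF1, FGF2, FGF5, FGF7 and FGF18, the receptor tyrosine kinases FGFR1, FGFR2, FGFR3 and FGFR4, and FGFRL1, an FGF receptor that lacks a kinase domain. They were taken by symbol from the 23346 genes of the RNA-seq count table. BT549, a mesenchymal-like human breast cancer cell line listed as WT, was transfected with 20 nM of siRNA, and poly(A) RNA was prepared 6 d later from 3 biological replicates per group. One group received an equal mix of 3 siRNAs against BNC2 (basonuclin-2, a zinc-finger protein of mesenchymal cells) and the other a negative control siRNA (NC siRNA), so that both groups had been transfected. RNA was measured in this single cell line at 1 time point, and the mix does not separate the effects of its 3 siRNAs.

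Most FGFs are released from cells and bind heparan sulfate at the cell surface together with an FGF receptor, which brings receptor kinases together and passes the signal through FRS2, GRB2 and SOS to RAS and the ERK kinases, and to PI3 kinase and AKT. Mesenchymal cells typically make the IIIc splice forms of the receptors and epithelial cells the IIIb forms, which bind different ligands, and counts per gene do not separate these forms. FGFRL1 binds FGFs and heparan sulfate but has no kinase domain to pass a signal on.

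The siRNAs are shown because they define the treatment. In each, the capitals mark the 19 bases of the sense strand that match the BNC2 transcript, followed by the overhang in lower case. On GRCh37, the assembly of hg19, the sites lie on the minus strand at chr9:16583000-16583018 in exon 4, chr9:16436834-16436852 in exon 6 and chr9:16419045-16419063 in exon 7 of the 7-exon canonical BNC2 transcript, all within its coding sequence, and are found in 12, 6 and 7 of the 16 annotated BNC2 transcripts.
BNC2 siRNA 1: GACUUGUGAUCAGUGUAAAtt
BNC2 siRNA 2: GGAAGACAUUCUAUGACAAtt
BNC2 siRNA 3: CCUCUGUACGAAGCCGAAAtt

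The target BNC2 was measured at 65.6, 51.5 and 58.6 CPM (counts scaled by library size with TMM normalisation) in the NC siRNA libraries and at 35.5, 36.6 and 41.6 CPM in the BNC2 siRNA libraries. The groups did not overlap, and BNC2 was left at 0.646 of its control level (log2 fold change -0.63, standard error 0.09, adjusted p = 8.2e-06 in edgeR's quasi-likelihood test). The 6 libraries held 16093978 to 18246254 counts on genes. A gene was tested if 3 or more libraries exceeded 1 CPM, and of the 12186 genes above this filter 72.9% passed an adjusted p of 0.05, 36.6% upwards and 36.2% downwards, and in 74.9% the values of the groups did not overlap. A call on a single gene was thus common in this comparison. The counts of FGF genes and of genes in the lists below stand beside these shares. The mesenchymal markers VIM, FN1, CDH2, ZEB1, ZEB2, SNAI2, TWIST1 and PRRX1 were all above the filter, with a summed level of 4380 to 4470 CPM in NC siRNA and 5260 to 5480 CPM in BNC2 siRNA libraries. All 7 epithelial markers were below it, summed to 0.783 to 1.35 CPM and 1.16 to 1.86 CPM, with EPCAM and ESRP1 at 0 in all libraries. The 4 endothelial markers also stayed below it, with CDH5 at 0, and of the leukocyte markers PTPRC and CD3E were near 0 and CD68 was above the filter. The part of these marker shifts in the FGF values was not tested.

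Of the 10 genes, 8 were above the filter and FGF7 and FGFR2 were not. FGF2 and FGFRL1 were up-regulated and FGF1, FGF5, FGF18 and FGFR1 were down-regulated, which is 6 of 8 genes called beside 72.9% of all genes tested. In 5 of the 8 the groups did not overlap, beside 74.9% of all genes tested. The median size of the log2 fold change was 0.42 for the 8 genes and 0.44 for all genes tested. The shares and the sizes of change of the 8 genes were near those of all genes and are a description only. FGF1, FGF2 and FGFRL1 kept their direction and their call under all 14 other settings of the analysis, whereas FGF5 and FGFR1 were close to the threshold. FGF18 was above the filter only through the NC siRNA libraries and so had to differ, and its calls in fits with this filter give no support. In the fit without any filter its log2 fold change was -3.64 (edgeR adjusted p = 5.4e-26). The small size of this p is not particular to FGF18. The same edgeR fit gave FGF2 and FGFRL1 far smaller adjusted p (1.7e-20 and 3.4e-45) than the main fit, though not FGFR1 (0.19). In bulk RNA, fewer cells that express a gene and less of its RNA per cell cannot be told apart.

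**Figure D1:**
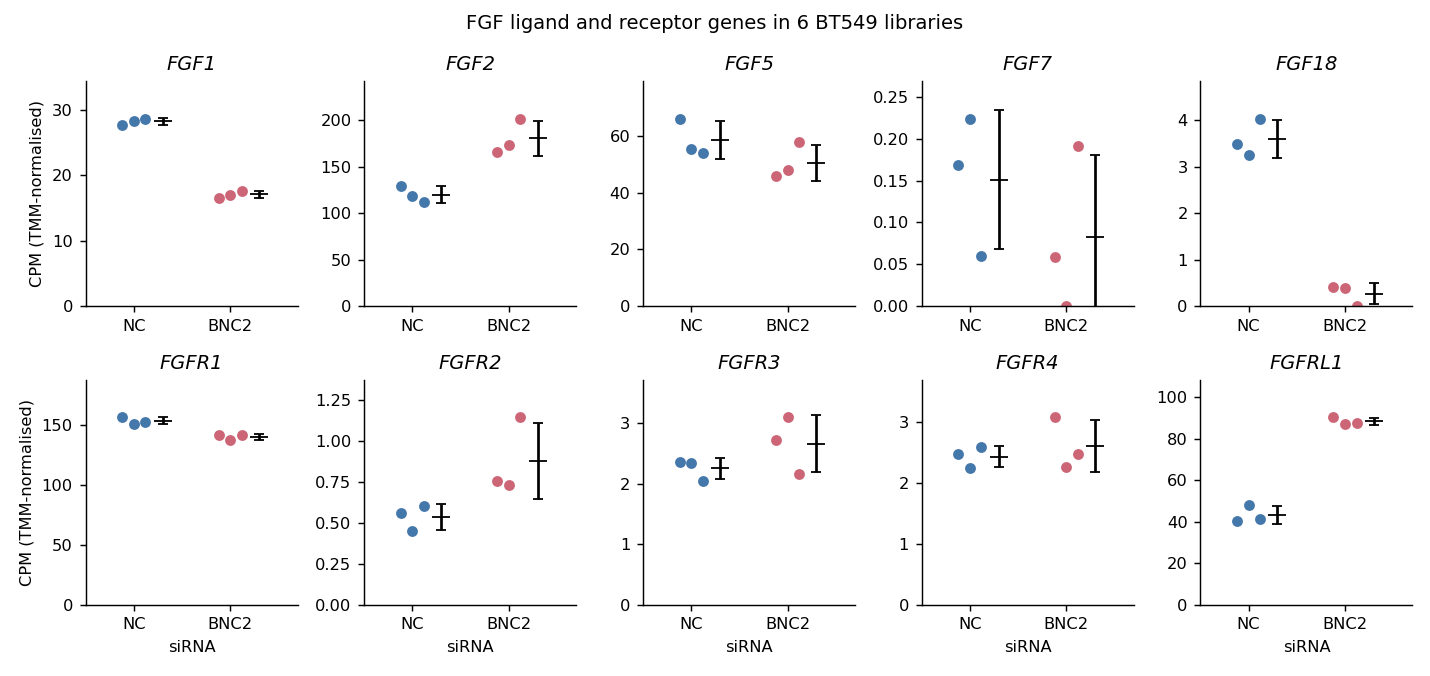
TMM-normalised CPM of each gene (vertical axes, from 0, with a scale of its own per gene) in the NC siRNA (blue) and BNC2 siRNA (red) libraries, 1 point per library, with the mean and SD of 3 libraries in black. FGF1, FGF18 and FGFR1 were lower and FGF2, FGFR2 and FGFRL1 higher in every BNC2 siRNA library than in every NC siRNA library, and the lower bar of FGF7 is cut off at 0.

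The stretches of 250 bases before the annotated starts of the 4 tested genes with the largest fold changes are given here from RefSeq on GRCh38.p14, since these genes moved in opposite directions. FGF2 (chr4:122826581-122826830, plus strand) and FGFRL1 (chr4:1012214-1012463, plus strand) rose, whereas FGF18 (chr5:171419397-171419646, plus strand) and FGF1 (chr5:142698071-142698320, minus strand, the first of 4 listed starts) fell. Capitals mark matches on either strand. The letters searched were GGGCGG for the GC box that binds factors of the SP family, TATAAA for the TATA box near some transcription starts, TGANTCA for the AP-1 site of FOS and JUN proteins, CAGGTG for the E-box that ZEB and SNAI repressors bind, and GGAATG for the TEAD factors of the Hippo pathway. No match overlapped another in the windows shown.
FGF2: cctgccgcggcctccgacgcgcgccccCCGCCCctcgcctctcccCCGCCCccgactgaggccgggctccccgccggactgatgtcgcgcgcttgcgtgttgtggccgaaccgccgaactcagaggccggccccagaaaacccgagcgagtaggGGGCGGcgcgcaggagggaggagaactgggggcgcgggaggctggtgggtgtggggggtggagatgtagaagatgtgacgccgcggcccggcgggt
FGFRL1: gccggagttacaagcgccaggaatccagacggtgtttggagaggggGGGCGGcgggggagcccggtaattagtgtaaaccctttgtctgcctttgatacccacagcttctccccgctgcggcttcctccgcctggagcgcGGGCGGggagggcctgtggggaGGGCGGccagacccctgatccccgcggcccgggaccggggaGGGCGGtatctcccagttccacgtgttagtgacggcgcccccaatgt
FGF18: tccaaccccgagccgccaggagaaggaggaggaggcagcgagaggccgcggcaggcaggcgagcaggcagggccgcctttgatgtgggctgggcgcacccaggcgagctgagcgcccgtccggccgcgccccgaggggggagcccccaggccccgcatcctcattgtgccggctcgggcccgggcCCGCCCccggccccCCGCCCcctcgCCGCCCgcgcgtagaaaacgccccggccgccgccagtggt
FGF1: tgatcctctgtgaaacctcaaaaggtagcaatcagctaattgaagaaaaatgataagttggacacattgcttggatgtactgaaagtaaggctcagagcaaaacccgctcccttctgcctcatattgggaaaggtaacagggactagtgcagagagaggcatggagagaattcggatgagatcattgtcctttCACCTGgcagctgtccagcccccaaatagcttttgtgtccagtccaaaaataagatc
The GC box was found 3 times for FGF2, 4 times for FGFRL1 and 3 times for FGF18, 1 time in each of the last 2 of the 4 FGF1 promoters, and was present in 42.6% of all 35116 RefSeq promoters of this length. GC content was 75.2% for FGF2, 67.6% for FGFRL1 and 78.8% for FGF18, beside a median of 58.0% and an upper quartile of 68.0% over all promoters. FGF2 and FGF18 lay above the upper quartile and FGFRL1 just below it. The 4 FGF1 promoters had 44.8% to 60.8% GC, and only the third of them was above the median. Promoters above the median thus belonged both to genes that rose and to genes that fell. The first and the second FGF1 promoter overlap and share 1 CAGGTG, a motif present in 17.5% of all promoters. The last FGF1 promoter held 2 GGAATG, present in 11.9%, and 1 TGANTCA, present in 6.57%. No TATAAA, found in 10.7% of promoters, was present in the windows of these 4 genes. A match describes these letters only, and counts per gene do not tell which FGF1 start was used.

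Among the ligands, FGF2 (basic FGF), a mitogen of mesenchymal and many other cells, was the most abundant per transcript length and rose. The gene lies on GRCh37 at chr4:123747837-123819391 on the plus strand and has 3 exons in its canonical transcript. FGF2 was measured at 130, 119 and 112 CPM in NC siRNA libraries and at 166, 174 and 202 CPM in BNC2 siRNA libraries. Every BNC2 siRNA library was above every NC siRNA library, with the highest value in BNC2 siRNA replicate 3. The means were 120 ± 8.96 and 181 ± 19 CPM (SD, n = 3), a 1.5-fold rise (log2 fold change 0.59, standard error 0.08, adjusted p = 2.4e-06 in edgeR's test across all genes). This change was larger than that of 61.7% of genes tested. The 3′ part of FGF2 overlaps NUDT6, a gene of the opposite strand, by 9540 bases. The counts are stranded, and NUDT6 itself was at 2.48 ± 0.384 and 2.51 ± 0.36 CPM (log2 fold change 0.03, adjusted p = 0.908 in the same edgeR fit).

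FGF1 (acidic FGF), a ligand that can bind all 4 receptor kinases, fell. It lies at chr5:141971743-142077635 on the minus strand. FGF1 had 27.7, 28.3 and 28.7 CPM in NC siRNA libraries and 16.6, 17 and 17.6 CPM in BNC2 siRNA libraries. The values lay close together within each group and far apart between the groups. The means of 28.2 ± 0.511 and 17.1 ± 0.499 CPM (SD, n = 3) differed 1.65-fold (log2 fold change -0.73, standard error 0.08, adjusted p = 5.9e-07 in the edgeR fit), more than for 70.3% of genes tested. SPRY4-AS1, a long noncoding RNA gene of the opposite strand, shares 79824 bases with the FGF1 locus.

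FGF5, known for ending the growth phase of the hair follicle and made by several tumour types, was second to FGF2 per transcript length among the 5 ligands and only slightly lower after BNC2 siRNA. It lies at chr4:81187793-81257834 on the plus strand. FGF5 was at 66.2, 55.6 and 53.9 CPM in NC siRNA libraries and at 46, 47.9 and 57.8 CPM in BNC2 siRNA libraries. The groups overlapped, because BNC2 siRNA replicate 3 was above NC siRNA replicates 2 and 3. The means were 58.5 ± 6.67 and 50.6 ± 6.34 CPM (SD, n = 3), and the log2 fold change of -0.21 (standard error 0.09) narrowly passed the test (edgeR adjusted p = 0.0481). The call was lost without NC siRNA replicate 1 (log2 fold change -0.12, edgeR adjusted p = 0.19), without BNC2 siRNA replicate 1 (-0.15, adjusted p = 0.2) and without BNC2 siRNA replicate 2 (-0.18, adjusted p = 0.16). Without BNC2 siRNA replicate 3 the log2 fold change was -0.33 (edgeR adjusted p = 0.0054).

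FGF18, a ligand of bone and lung development that signals through receptors such as FGFR3, showed the largest change of the 10 genes. It lies at chr5:170846651-170884630 on the plus strand, with 5 exons. FGF18 had 62, 58 and 67 counts in NC siRNA libraries and 7, 7 and 0 counts in BNC2 siRNA libraries, where a count of 0 allows up to 3 counts. These counts corresponded to 3.49, 3.25 and 4.03 CPM and to 0.407, 0.395 and 0 CPM. FGF18 was thus a low transcript in control cells that approached the detection limit in every BNC2 siRNA library. The means of 3.59 ± 0.402 and 0.267 ± 0.232 CPM (SD, n = 3) gave a fitted 12.7-fold fall (log2 fold change -3.66, standard error 0.39, adjusted p = 2.7e-07 in the edgeR fit), larger than for 99.3% of genes tested. Because FGF18 was above the filter only through the NC siRNA libraries, this p and this place among genes tested give no support. The low counts leave the size of the fall uncertain, from -4.05 without BNC2 siRNA replicate 1 to -3.15 without BNC2 siRNA replicate 3 on the log2 scale.

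FGF7 (keratinocyte growth factor), a ligand that stromal cells make and that acts on epithelial cells through FGFR2-IIIb, was barely detected. It lies at chr15:49715434-49780972 on the plus strand. FGF7 had 3, 4 and 1 counts in NC siRNA libraries and 1, 0 and 3 counts in BNC2 siRNA libraries. No difference was detectable at this depth. In the fit without the filter on low counts, in which 53.3% of 18121 genes were called, its log2 fold change was -0.86 with a standard error of 1.1 and an adjusted p of 0.512 by edgeR. Partial copies of FGF7 exist elsewhere in the genome, so reads that map to several places would be missing from its count.

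Among the receptors, FGFR1 was the predominant kinase and was slightly lower after BNC2 siRNA. It lies at chr8:38257733-38326352 on the minus strand and has 18 exons in its canonical transcript. FGFR1 was at 156, 150 and 153 CPM in NC siRNA libraries and at 141, 137 and 141 CPM in BNC2 siRNA libraries. The groups did not overlap, but the gap was small beside the level. The means were 153 ± 2.93 and 140 ± 2.42 CPM (SD, n = 3), and the log2 fold change of -0.13 (standard error 0.05) narrowly passed the test (edgeR adjusted p = 0.0399). The change was larger than for only 16.6% of genes tested. The call was lost when any 1 of the 6 libraries was left out (edgeR adjusted p from 0.055 without BNC2 siRNA replicate 3 to 0.14 without BNC2 siRNA replicate 2), and the log2 fold change was -0.21 with scaling by total counts and -0.10 without the filter on low counts (adjusted p = 0.0033 and 0.19 in edgeR).

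The other 3 receptor kinases were low in both groups. FGFR2, at chr10:123237846-123357972 on the minus strand, had 10, 8 and 10 counts in NC siRNA libraries and 13, 13 and 18 counts in BNC2 siRNA libraries, which is 0.538 ± 0.0801 and 0.879 ± 0.232 CPM (SD, n = 3). The groups did not overlap, but FGFR2 was below the filter, and without the filter its log2 fold change of 0.72 (standard error 0.44) had an adjusted p of 0.166 by edgeR. FGFR3, a receptor known for restraining bone growth, lies at chr4:1795020-1810599 on the plus strand. It was at 2.37, 2.35 and 2.05 CPM against 2.73, 3.1 and 2.16 CPM. The groups overlapped through BNC2 siRNA replicate 3, and the log2 fold change of 0.25 (standard error 0.21) did not pass the test (edgeR adjusted p = 0.301). Leaving out BNC2 siRNA replicate 2 moved this value to 0.12, and leaving out replicate 3 of that group moved it to 0.36. FGFR4, which serves as the FGF19 receptor of the liver, lies at chr5:176513906-176525145 on the plus strand. It was at 2.48, 2.24 and 2.59 CPM against 3.08, 2.26 and 2.48 CPM. The groups overlapped here too, and the log2 fold change was 0.10 (standard error 0.21, edgeR adjusted p = 0.675), which turned to -0.04 without BNC2 siRNA replicate 1. Missing the threshold does not show that FGFR3 and FGFR4 were unchanged.

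FGFRL1, the receptor without a kinase, doubled. It lies at chr4:1003724-1020686 on the plus strand, with 7 exons in its canonical transcript. FGFRL1 was at 40.5, 48.1 and 41.3 CPM in NC siRNA libraries and at 90.5, 87.4 and 87.8 CPM in BNC2 siRNA libraries. Every BNC2 siRNA library was above every NC siRNA library. The means of 43.3 ± 4.15 and 88.6 ± 1.67 CPM (SD, n = 3) differed 2.05-fold (log2 fold change 1.03, standard error 0.07, adjusted p = 1.6e-09 in the edgeR fit). This rise was the largest among the 10 genes and exceeded the change of 82.8% of genes tested. It ranged from 0.96 to 1.11 on the log2 scale over the 14 other settings.

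**Figure D2:**
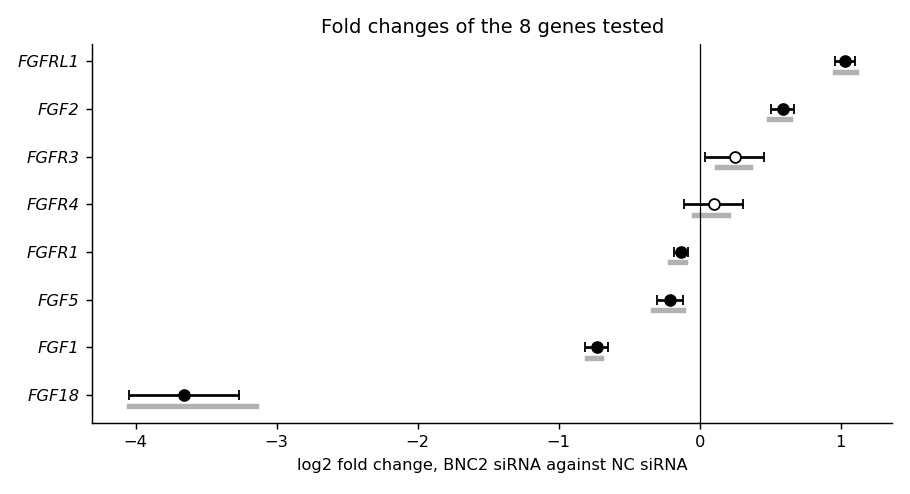
Log2 fold change of BNC2 siRNA against NC siRNA (horizontal axis) with its standard error for the 8 genes tested, filled where the adjusted p was at most 0.05, and below each the range over the 14 other settings as a grey bar. FGF18 (-3.66) and FGFRL1 (1.03) lie at the ends, and the grey bars of FGF5 and FGFR1 stay below 0 although their calls did not hold in every setting.

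Ratios between counts of the same library do not depend on how libraries are scaled. Per 100 counts of FGFR1 there were 25.9, 32.0 and 27.1 counts of FGFRL1 in NC siRNA libraries and 64.0, 63.8 and 62.2 in BNC2 siRNA libraries. The receptor without a kinase was thus raised relative to the main receptor kinase in every BNC2 siRNA library. Per 100 counts of FGF1 there were 468, 420 and 390 counts of FGF2 against 1000, 1020 and 1150, and FGF18 went from 12.6, 11.5 and 14.1 counts to 2.46, 2.32 and 0. Per 100 counts of FGF2 there were 51.1, 46.7 and 48.2 counts of FGF5 against 27.8, 27.6 and 28.6. FGF5 thus fell relative to FGF2 without overlap, although its own CPM values overlapped. These ratios restate the same counts and were given no test.

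Between genes, levels were compared as CPM per kb of the exon union of each gene. In NC siRNA cells FGF2 was highest at 17.7 ± 1.32 CPM per kb, followed by FGFRL1 (9.97 ± 0.956), FGF5 (9.83 ± 1.12), FGFR1 (8.9 ± 0.17), FGF1 (5.67 ± 0.103) and FGF18 (1.8 ± 0.201). FGFRL1 and FGF5 did not differ beyond their spread, nor did FGF5 and FGFR1, whereas the lowest NC siRNA value of FGFRL1 was above the highest of FGFR1. FGFR4 (0.506 ± 0.037) and FGFR3 (0.465 ± 0.0372) were also within their spread of each other, and FGFR2 and FGF7 were below 0.05 CPM per kb. In BNC2 siRNA cells FGF2 (26.5 ± 2.79) and FGFRL1 (20.4 ± 0.384) stood above FGF5 (8.49 ± 1.06) and FGFR1 (8.13 ± 0.141), which again lay within their spread, and FGF18 (0.134 ± 0.116) fell below FGFR3 and FGFR4. The place of FGFR1 depended on the length used, because its exon union of 17201 bases is much longer than its canonical transcript of 5697 bases. With canonical transcripts FGFR1 was highest in NC siRNA cells at 26.9 ± 0.514 CPM per kb, above FGF2 at 18.1 ± 1.35, and in BNC2 siRNA cells FGF2 (27.1 ± 2.86), FGFRL1 (26.0 ± 0.489) and FGFR1 (24.6 ± 0.424) came close to each other.

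**Figure D3:**
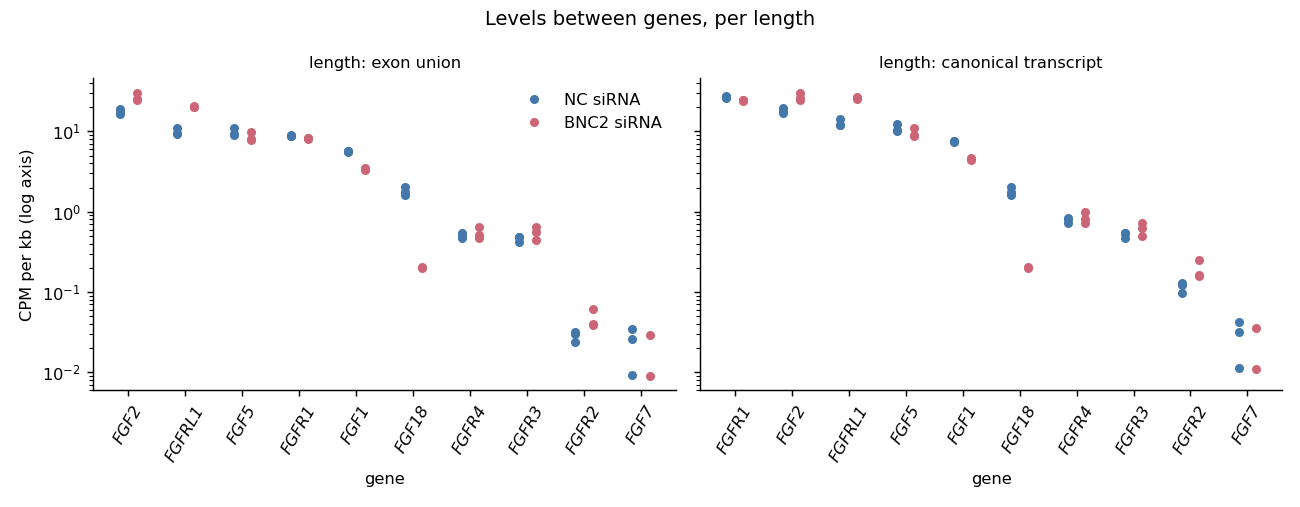
CPM per kb of each gene (log axis, values of 0 not drawn) in the NC siRNA (blue) and BNC2 siRNA (red) libraries, with the length taken from the exon union (left) or the canonical transcript (right), and genes ordered by their NC siRNA mean. FGFR1 is behind FGF2, FGFRL1 and FGF5 on the left and first on the right in NC siRNA cells, whereas FGFR4, FGFR3, FGFR2 and FGF7 are last on both sides.

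Per kb, FGF2 made up 50.8%, 51.2% and 49.4% of the counts of the 5 ligands in NC siRNA libraries and 68.4%, 68.7% and 69.1% in BNC2 siRNA libraries. The share of FGF1 went from 14.8%, 16.7% and 17.3% to 9.34%, 9.19% and 8.21%, that of FGF5 from 29.6%, 27.3% and 27.2% to 21.7%, 21.6% and 22.6%, and that of FGF18 from 4.66%, 4.76% and 6.07% to 0.572%, 0.531% and 0. All of these shares separated the groups, but as parts of a whole they are tied together, so a rise of FGF2 lowers the others by construction. The level of FGF5 itself overlapped between the groups. Among the 4 receptor kinases, FGFR1 held 89.8%, 90.0% and 89.9% of the counts per kb of exon union in NC siRNA libraries and 86.9%, 87.4% and 88.9% in BNC2 siRNA libraries. FGFR1 thus remained the main receptor kinase by RNA in both groups.

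**Figure D4:**
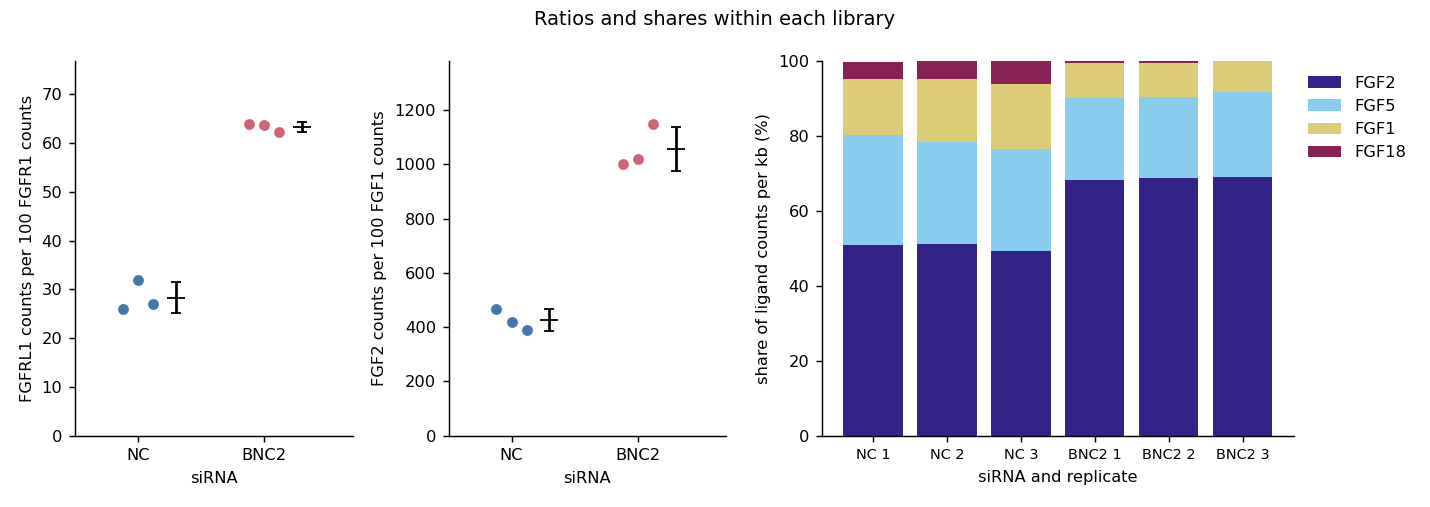
Counts of FGFRL1 per 100 counts of FGFR1 (left) and of FGF2 per 100 counts of FGF1 (middle) in each library, with the mean and SD of 3 libraries in black, and the share of each ligand in the counts per kb of the 5 ligands (right, bars from 0, FGF7 too small to see). The share of FGF2 is 49.4% to 51.2% in NC siRNA and 68.4% to 69.1% in BNC2 siRNA libraries.

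The genes whose profiles over the 6 libraries were most like that of FGFRL1, among 10296 genes with a mean of at least 5 CPM, were SLC2A4RG, BRE and POLD2. Their root mean square differences from FGFRL1 were 0.0324, 0.0345 and 0.0387 on the centred log2(CPM + 0.5) scale, and their log2 fold changes were 1.05, 1.01 and 1.06. Since genes were picked by closeness over the same 6 libraries, similar fold changes follow from the choice. Nearest to FGF18 were the cytokine genes IL6 and TNFSF15 and the copper chaperone gene ATOX1, at differences of 0.109, 0.149 and 0.217. Their fitted log2 fold changes of -2.52, -2.70 and -2.46 were smaller in size than that of FGF18 (-3.66), and in this measure the added 0.5 CPM shrinks the change of a gene near 0. IL6 went from 19.4 to 3.34 CPM, TNFSF15 from 16.5 to 2.53 CPM and ATOX1 from 68.5 to 12.4 CPM.

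Of the 17 other FGF ligand genes, FGF11, FGF12 and FGF13 were above the filter and 7 had no count in any library. The proteins of these 3 genes are mostly kept inside the cell and are not secreted ligands of the receptors. FGF11 rose from 9.52 ± 1.26 to 22.5 ± 1.37 CPM (log2 fold change 1.24, adjusted p = 2.9e-08, n = 3 per group in the edgeR fit). FGF12 fell from 30.8 ± 0.65 to 23.7 ± 0.98 CPM (log2 fold change -0.38, adjusted p = 0.00035 in edgeR). FGF13 was at 15.7 ± 1.81 and 18.5 ± 0.995 CPM with overlapping groups, and its call (log2 fold change 0.24, edgeR adjusted p = 0.0457) was lost in 8 of 14 other settings. Of the FGF genes that encode receptor-binding ligands, those above the filter were therefore FGF1, FGF2, FGF5 and FGF18.

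Among 15 co-receptors and FGF-binding proteins, 8 were tested, 5 rose and 2 fell, with a median log2 fold change of 0.54, beside 0 over all genes tested. Over all genes tested, 72.9% were called, 36.6% upwards and 36.2% downwards. The adhesion proteins NCAM1 (log2 fold change 1.84) and CDH2 (1.36), which bind FGF receptors, and FLRT2 (0.72) rose. IL17RD, an inhibitor of FGF receptor signalling, fell (-1.22), and the fall of FIBP (-0.20) was lost in 6 of 14 other settings. The klotho co-receptors KL and KLB were near 0. Of the 4 regulators of receptor splicing, RBFOX2 (0.65) and PTBP1 (0.49) rose, whereas ESRP1, which promotes the epithelial IIIb forms, had no count. ESRP2, which promotes the same forms, was under the filter. It was at 0.321 ± 0.176 CPM in NC siRNA and 1.05 ± 0.273 CPM in BNC2 siRNA libraries (SD, n = 3) without overlap. With no filter, where 53.3% of 18121 genes were called, ESRP2 was called higher (edgeR adjusted p = 0.000912). This call rests on low counts, 8, 7 and 2 in NC siRNA and 13, 23 and 17 in BNC2 siRNA libraries. ESRP2 entered the filterByExpr fit only through the BNC2 siRNA libraries, so its call there (edgeR adjusted p = 0.00259) gives no support.

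Of 11 heparan sulfate carriers, 7 were tested, 2 rose and 3 fell (median log2 fold change -0.38). GPC6 (1.90) and SDC1 (0.98) rose, and SDC4 (-1.43), HSPG2 (-0.90) and SDC3 (-0.50) fell. Of 11 genes of heparan sulfate synthesis and editing, 10 were tested, 4 rose and 5 fell (median -0.21). The counts of both lists stand beside 36.6% of all genes tested called upwards and 36.2% called downwards. SULF2, an enzyme that removes sulfate groups from heparan sulfate outside the cell, rose from 0.937 ± 0.0612 to 8.05 ± 0.317 CPM (log2 fold change 3.09), and was above the filter only through the BNC2 siRNA libraries. The sulfotransferase gene NDST1 (0.67) and the chain-building EXT1 (0.54) rose, while HS6ST1 (-1.20), the epimerase gene GLCE (-0.87) and the heparanase gene HPSE (-0.55) fell.

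All 25 genes of the cascade below the receptors were tested, and 10 rose, 5 fell and 10 were not called (median log2 fold change 0.09). The kinase genes AKT1 (1.34) and BRAF (1.05) and the ubiquitin ligase gene CBL (0.87) had the largest rises, and the adaptor CRKL (-1.30) and PIK3R1 (-0.98) the largest falls. The receptor adaptor FRS2 was at 36.5 ± 3.95 and 34.3 ± 2.6 CPM (edgeR adjusted p = 0.358). All 15 genes of ERK feedback and targets were called, 5 upwards and 10 downwards, with a median of -0.39. Of all genes tested, 72.9% were called, 36.6% upwards and 36.2% downwards. The upward count was 4 with scaling by total counts. It was also 4 when NC siRNA replicate 1 or 3 or BNC2 siRNA replicate 1 or 2 was left out. Falls were seen for EGR1 (-2.09), the ERK phosphatase genes DUSP4 (-1.84) and DUSP6 (-0.95), ETV5 (-1.24) and the feedback inhibitor SPRY4 (-0.61). Rises were seen for ETV1 (1.12), FOS (0.95) and FOSL1 (0.56). The phosphatase gene DUSP5 of the same list also rose (0.29, edgeR adjusted p = 0.0175), with overlapping groups. The list moved both ways, and many receptors other than those for FGFs share these genes. DUSP5, DUSP6, SPRY4, FRS2, ESRP1, ESRP2, KL and KLB were named after their values were seen.

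**Figure D5:**
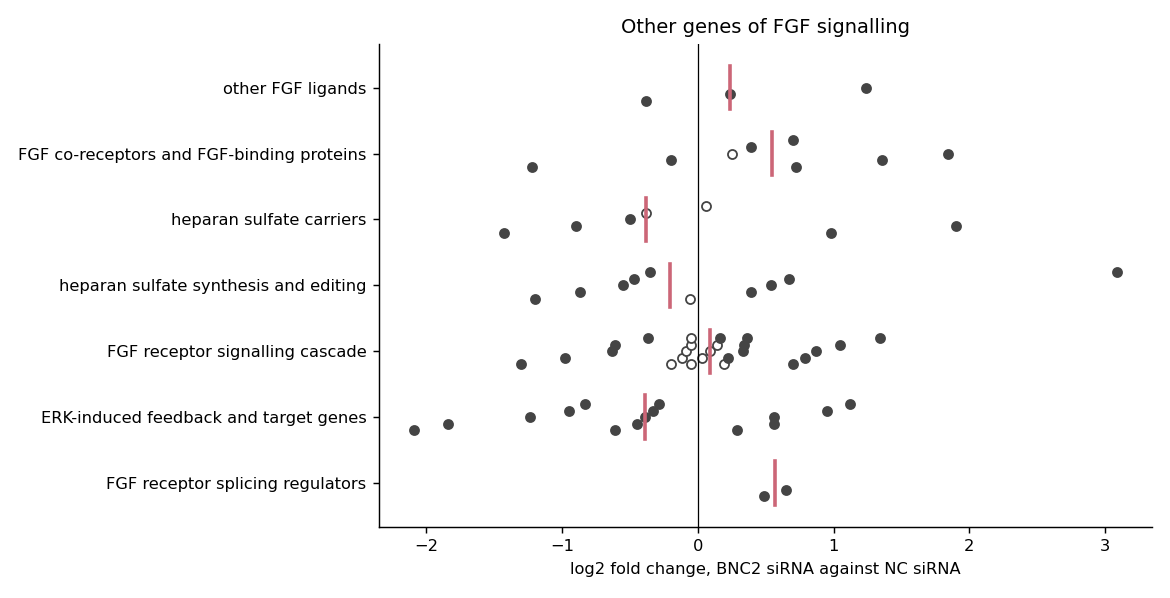
Log2 fold change of BNC2 siRNA against NC siRNA (horizontal axis) for each tested gene of 7 lists of FGF signalling (rows), filled where the adjusted p was at most 0.05, with the median of each list as a red line. Every list with more than 2 tested genes holds genes on both sides of 0, from SULF2 at 3.09 to EGR1 at -2.09.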

How the data were processed

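Poly(A) RNA libraries of BT549 cells were sequenced as single-end reads and aligned by the authors with STAR 2.6.1d to hg19 with the iGenomes UCSC annotation. The authors deposited raw read counts per gene, of which 37.66% to 41.1% of reads per library were assigned to no gene and left out here. STAR counts reads that map to 1 place and overlap 1 gene, on the reverse strand in the table used. The sample labels name Lipofectamine 2000, whereas the methods name RNAiMax for siRNAs.

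Counts were tested with edgeR 4.0.16 in R 4.3.3 (quasi-likelihood test, TMM factors 0.972 to 1.04, no replicate block). A gene entered if 3 or more of the 6 libraries exceeded 1 CPM, and a Benjamini-Hochberg adjusted p over 12186 genes of at most 0.05 was called. The standard error is the size of the log2 fold change divided by the square root of F. For a single gene, the smallest exact two-sided permutation p of this design is 0.1. A count of 0 allows up to 3 counts, and this covers counting error only. The script was tested on simulated data. No pair of libraries was a duplicate (chi-square per degree of freedom from 3.54 to 11.9). Alternatives tried were the likelihood ratio test of edgeR that the authors used, DESeq2 1.42.0, its size factors, scaling by total counts, no filter, filterByExpr, a replicate block, reads of both strands and leaving out each library. The canonical transcript length was added after seeing the data. Positions and lengths come from GENCODE 44 on GRCh37, and promoters from RefSeq.

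The FGF genes and the lists were chosen with earlier results of these data known. Named are the 10 FGF genes, the other FGF ligands above the filter, up to 3 largest rises and falls called per list, and the 3 nearest profiles of FGFRL1 and FGF18. Of the mesenchymal markers, 6 rose (TWIST1 1.54, CDH2 1.36 and SNAI2 1.15 most, on the log2 scale), ZEB2 fell by 1.22 and PRRX1 was not called. CD68 rose by 0.29. FGF9, CLDN4 and VWF were named after their values were seen. Results of some single genes of the lists are not reported here.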

Additional observations from a re-analysis of the deposited data

Results flagged for a closer look

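Reads on the strand opposite to FGF2, which are not part of the FGF2 count, were a little more frequent after BNC2 siRNA, with every BNC2 siRNA library above every NC siRNA library. They amounted to 35, 28 and 35 counts in NC siRNA and 39, 48 and 36 counts in BNC2 siRNA libraries, or to means of 1.88 and 2.42 CPM. The difference was not tested. NUDT6 lies on that strand and overlaps FGF2, so such reads in NUDT6 exons are part of the NUDT6 count. NUDT6 was at 2.48 CPM in NC siRNA and 2.51 CPM in BNC2 siRNA libraries.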

How the results depend on the processing

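Over the 14 alternatives, 8271 to 9662 genes were called in place of 8879, and both rises (FGF2 and FGFRL1) held in all of them. The number of FGF genes that fell went from 4 to 2 with filterByExpr (2) and with the replicate block (2), and to between 2 and 3 when a library was left out, because FGF5 and FGFR1 lost their calls. With filterByExpr the adjusted p was 0.057 for FGF5 and 0.056 for FGFR1 in edgeR, and with the replicate block 0.078 and 0.11. FGF5 also missed with reads of both strands and FGFR1 without the filter. FGFR4 changed sign, to -0.04, without BNC2 siRNA replicate 1, and ranged up to 0.20 without replicate 2. The block called 8400 genes, but the libraries share only a replicate number: deviations of same-numbered libraries correlated at -0.26, -0.09 and -0.15 across genes. Scaling by total counts moved the median log2 fold change of all genes to -0.074, and no filter moved it to -0.073. With no filter, FGF9 was also called lower, so that 2 other FGF ligands fell in place of 1, as were the epithelial marker CLDN4 and the endothelial marker VWF (edgeR adjusted p = 0.00957 and 0.00429), both at 0 in BNC2 siRNA libraries. ESRP2 was called higher, from low counts, with no filter, where 53.3% of 18121 genes were called. It was also called higher with filterByExpr, but passed that filter only through the BNC2 siRNA libraries, so this second call gives no support. Of 644 refits of named genes 614 kept direction and call, and of 308 list counts 289 stayed within 1.5 times. The cause of these differences was not tested. Depth limits FGF7, FGFR2 and the size of the FGF18 change.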

Other observations

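FGF9, which encodes a secreted ligand and stayed under the low-count filter, was at 0.27 ± 0.0965 CPM in NC siRNA libraries and had no count in BNC2 siRNA libraries (n = 3 per group). In the fit without the filter, FGF9 was called lower (edgeR adjusted p = 0.00285), from 3, 5 and 6 counts in the NC siRNA libraries. No fold is given because these counts are near the limit of 3 that a count of 0 allows. Reads on the opposite strand of FGFR1 were at a mean of 1.48 CPM in NC siRNA and 0.78 CPM in BNC2 siRNA libraries, and those of FGFRL1 at 1.22 and 1.33 CPM. Differences in reads on the opposite strand were not tested.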
